A study of Mus musculus with 18 samples.

Results

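The 40 genes described here act at the end of the cell cycle, in G2 phase and mitosis. They were chosen by name, as rows of the count tables whose gene symbol was on a list of G2/M and mitotic spindle genes, and all 40 were among the 43280 genes counted. All 40 also passed the filter on low counts, which kept 13922 genes for testing. RNA was sequenced from sorted mouse T-lineage cells in 18 libraries of 4 groups. CD4+CD8+ cells (n = 3) were grown on OP9-DL1, a bone marrow stromal line carrying a Notch ligand, from an induced pluripotent stem cell line the labels name Pmel iPSC. Artificial CD8 cells (n = 5) were CD8+ cells grown from the same named line on OP9-DL1. The iRTE group (n = 5), again from that line, is by elimination the set of CD8+ cells that the study grew in a 3D thymic culture, since the labels do not spell the name out and the growth protocol of all cultured groups names OP9-DL1. Splenic CD8 cells (n = 5) were naive CD8+ cells taken from the spleen of transgenic mice. Sorting used CD45, CD8, CD4 and TCRab, and a dump gate removed cells with NK1.1, CD11c or TCRgd. The labels give neither ages, nor the number of stem cell clones or animals behind the libraries, nor say that replicates were separate cultures, so p-values reflect no more than library-to-library spread, which may be technical.

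A dividing cell enters mitosis when cyclin B binds and activates the kinase Cdk1. Polo-like and Aurora kinases then build the spindle, kinetochores attach chromosomes to it, and a checkpoint holds the anaphase-promoting complex until attachment is complete. Transcription of these genes peaks in G2 and mitosis under the MuvB complex with B-Myb and FoxM1, and is silenced in resting cells by MuvB within the DREAM complex. In the thymus, early CD4+CD8+ cells arise from dividing blasts, whereas naive CD8+ cells of the spleen are mostly at rest.

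MuvB binds a short promoter element called the cell cycle genes homology region (CHR), and NF-Y, which acts with it, binds the CCAAT box. The letters TTTGAA or TTCGAA (CHR) and CCAAT were searched on both strands in promoter windows from RefSeq (GRCm38.p6), from 250 bases before to 50 after a gene's start, and neither motif is contained in the other. A window was given for 33 of the 40 genes, and not for Ccna2, Cdc25c, Foxm1, Aurkb, Kif20a, Tpx2 or Dlgap5. A gene was counted where any of its windows held the letters, since some genes, Ect2 and Prc1 among them, have more than 1. CHR letters were found for 25 of these 33 genes (75.8%), against 21.7% of the 27025 genes with a window. From 50 bases before the start to the end of the window they were found for 23 of 33 (69.7%), against 6.12% of all genes. CCAAT letters were found for 24 of 33 (72.7%) against 41.1%, and at least 2 of them in 1 window for 18 of 33 (54.5%) against 13.3%. Both motifs were in the same window for 21 of 33 (63.6%) against 8.61%. Neither was found in the windows of Plk4, Birc5, Mad2l1, Nuf2 and Nusap1, which says only that these letters are not in these windows.

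Stretches from 150 bases before to 25 after the start are given for 6 genes on whose values the results below turn, 5′ to 3′ on the strand of the gene, with CHR and CCAAT letters (TTCAAA or ATTGG where the match is on the other strand) in capitals. Ccnb2, Cdk1 and Ube2c carry both motifs, and Ccnb1 carries CCAAT letters without CHR letters. Kif23 departed from the other genes in the comparisons with splenic CD8, and Mki67 only in that of iRTE with splenic CD8. Kif23 carried both motifs close to its start.
Ccnb2 (GRCm38.p6, chr9:70421530-70421704, minus strand): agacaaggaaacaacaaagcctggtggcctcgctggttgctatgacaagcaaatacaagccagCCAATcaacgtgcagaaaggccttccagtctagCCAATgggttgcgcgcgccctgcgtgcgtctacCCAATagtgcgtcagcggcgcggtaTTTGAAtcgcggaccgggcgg
Cdk1 (GRCm38.p6, chr10:69352888-69353062, minus strand): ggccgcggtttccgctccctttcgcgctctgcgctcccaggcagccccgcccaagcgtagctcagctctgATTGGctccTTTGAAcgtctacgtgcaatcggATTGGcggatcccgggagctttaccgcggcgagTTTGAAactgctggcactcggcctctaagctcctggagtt
Ube2c (GRCm38.p6, chr2:164769779-164769953, plus strand): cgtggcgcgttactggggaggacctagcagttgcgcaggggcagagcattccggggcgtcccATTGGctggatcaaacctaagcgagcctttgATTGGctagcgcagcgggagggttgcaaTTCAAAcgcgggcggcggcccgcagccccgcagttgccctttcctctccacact
Kif23 (GRCm38.p6, chr9:61946775-61946949, minus strand): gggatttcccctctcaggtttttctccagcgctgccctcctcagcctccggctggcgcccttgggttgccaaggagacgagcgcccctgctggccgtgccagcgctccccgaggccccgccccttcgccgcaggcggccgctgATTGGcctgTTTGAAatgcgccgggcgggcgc
Mki67 (GRCm38.p6, chr7:135716355-135716529, minus strand): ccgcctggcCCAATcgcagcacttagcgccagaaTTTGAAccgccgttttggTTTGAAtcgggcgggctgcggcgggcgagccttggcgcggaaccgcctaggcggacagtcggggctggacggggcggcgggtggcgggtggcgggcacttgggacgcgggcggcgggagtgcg
Ccnb1 (GRCm38.p6, chr13:100786462-100786636, minus strand): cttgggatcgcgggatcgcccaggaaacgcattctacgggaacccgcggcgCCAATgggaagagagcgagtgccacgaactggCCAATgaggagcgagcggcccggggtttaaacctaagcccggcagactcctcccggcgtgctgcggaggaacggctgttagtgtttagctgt

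**Figure D1:**
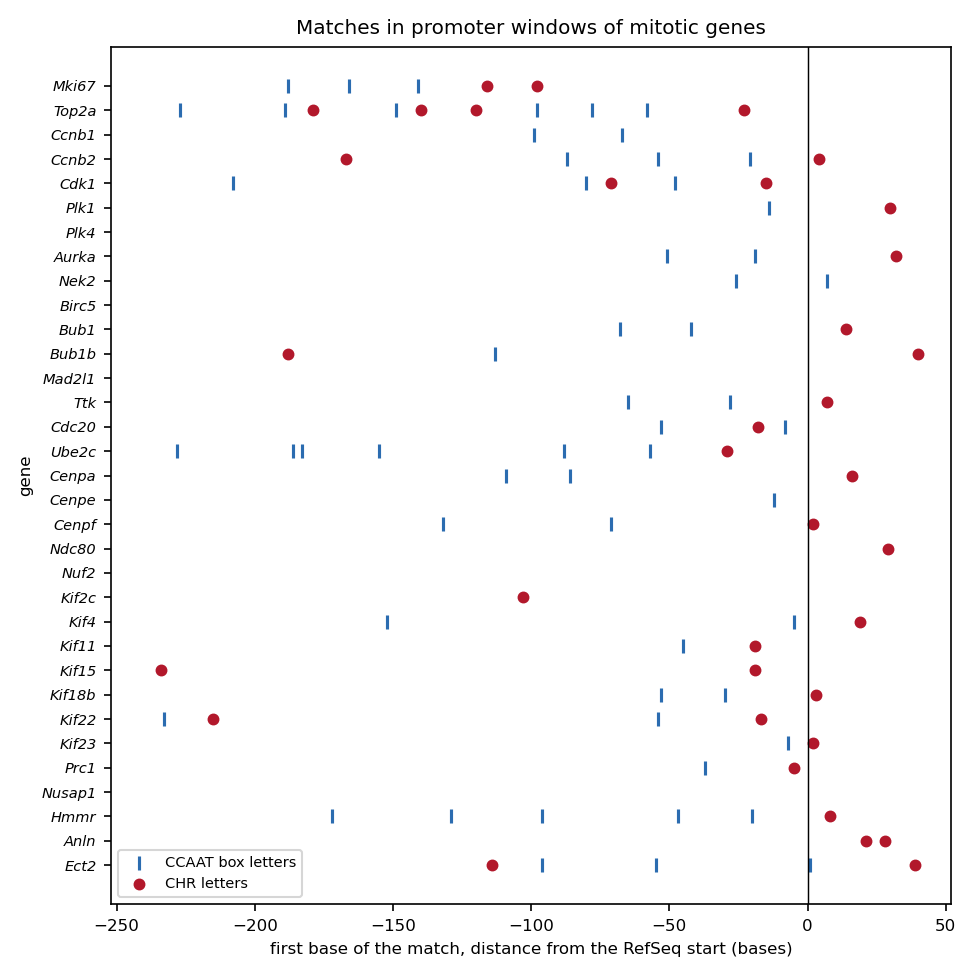
First base of each match to CHR letters (red dots) and CCAAT letters (blue ticks) against distance in bases from the RefSeq start (vertical line), for the 33 genes with a window; where a gene has more than 1 window, the first listed is drawn. CHR matches gather near the start, where 23 of 33 genes have one.

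Depth ran from 11132768 to 19305751 counts per library. A level of 3 counts, the limit that a count of 0 allows, equals 0.155 to 0.269 CPM, the counts of a gene scaled to its library's total, and this limit covers counting error only. T-lineage marker genes (10 of 10 in the table) summed to 7281 to 9054 CPM in CD4+CD8+ and 7908 to 8588 in iRTE. The sums were 5967 to 6642 CPM in Artificial CD8 and 8345 to 9147 in splenic CD8. Cd4 stood at 152 to 266 CPM in CD4+CD8+ cells, 1.92 to 9.30 in Artificial CD8 and 0 in all iRTE libraries. Cd5 was lowest in iRTE, at 3.64 to 11.7 CPM, against 56.3 to 58.3 in Artificial CD8. It stood at 58.8 to 77.4 CPM in CD4+CD8+ and 96.6 to 111 in splenic CD8. Of these 10 markers, 5 were called higher (20.0% of all genes) and 3 lower (18.7%) in iRTE than in Artificial CD8. Stromal markers (12 genes, with Dcn and Lum at 0 throughout) summed to 1.62, 52.7 and 74.8 CPM in CD4+CD8+ 1, 2 and 3, to 0.940 to 4.28 in iRTE, 18 to 27.4 in Artificial CD8 and 2.60 to 4.58 in splenic CD8. The sum of the 8 thymic epithelial markers was 17.5 to 22.1 CPM in CD4+CD8+, 1.13 to 8.53 in iRTE, 30.8 to 40.4 in Artificial CD8 and 1.86 to 4.5 in splenic CD8, with Foxn1 at 0 in all libraries. Single genes carried these sums in Artificial CD8: Epcam at 29.9 to 40 CPM, with Krt5 and Krt18 at 0, and Pdgfrb at 14.7 to 23.8 CPM. Epcam (15.3 to 19.7 CPM) also made up most of the epithelial sum in CD4+CD8+. The stromal sums of CD4+CD8+ 2 and 3 were spread over several genes, among them Fn1 (15.7 and 21.8 CPM) and Col1a2 (10.7 and 12.5 CPM). B-cell markers reached 35.2 to 49.8 CPM and erythroid markers 187 to 243 CPM in splenic CD8, against at most 7.28 and 77.0 elsewhere, where Gata1 (30.2 to 76.0 CPM) made up nearly all of the erythroid sum. Whether other cell types take part in the differences between groups below was not tested. CD4+CD8+ 1 stood apart from CD4+CD8+ 2 and 3 beyond its stromal markers (chi-square per degree of freedom over genes 52.3 and 46.8, against 5.41 between the other two). Of the 40 mitotic genes 25 were lowest and 11 highest in it, from 52.7% of the mean of the other two for Bub1b (129 against 261 and 230 CPM) to 149% for Cenpa. Without CD4+CD8+ 1, 36 mitotic genes were called lower in iRTE than in CD4+CD8+ in place of 40. The counts of 1 for Artificial CD8 and 39 for splenic CD8 were the same. Whether counting used strand is not given in the sources used here, and in GENCODE M21 exons of 8 of the 40 genes overlap those of a protein-coding gene on the other strand, whose reads could then not be told apart. These are Kif20a with Cdc23 (1271 bases), Prc1 with Rccd1 (911), Kif4 with Pdzd11 (832), Cdc25c with Gm3550 (623), Ube2c with Tnnc2 (592), Ccna2 with Exosc9 (510), Nusap1 with Oip5 (172) and Cdc20 with Elovl1 (53). On the same strand, where counting by strand would not help, Foxm1 overlaps Tex52 (144 bases) and Gm44596 (97). Neither of these symbols was among the genes counted. Top2a overlaps the snoRNA gene Gm23451 (122 bases) on the same strand, and that gene was counted.

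The mitotic genes were high in CD4+CD8+ and Artificial CD8 cells, intermediate in iRTE and low in splenic CD8 cells. Summed over the 40 genes they stood at 5182, 5674 and 5883 CPM in CD4+CD8+ 1 to 3 (5580 ± 360, SD). They summed to 5032, 4463, 3771, 4489 and 4787 CPM in Artificial CD8 1 to 5 (4508 ± 474), and to 2056, 1821, 1892, 465 and 2470 CPM in iRTE 1 to 5 (1741 ± 756). In splenic CD8 1 to 5 the sums were 572, 467, 504, 524 and 545 CPM (522 ± 40). One library, iRTE 4, lay just below the splenic libraries, while the other 4 iRTE libraries lay between those and Artificial CD8, with a mean of 2060 ± 291 CPM without iRTE 4. For 36 of the 40 genes the group means fell in the order CD4+CD8+, Artificial CD8, iRTE, splenic CD8, the exceptions being Plk4, Mad2l1, Kif23 and Anln. In bulk RNA, fewer dividing cells and less of these transcripts per cell cannot be told apart.

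**Figure D2:**
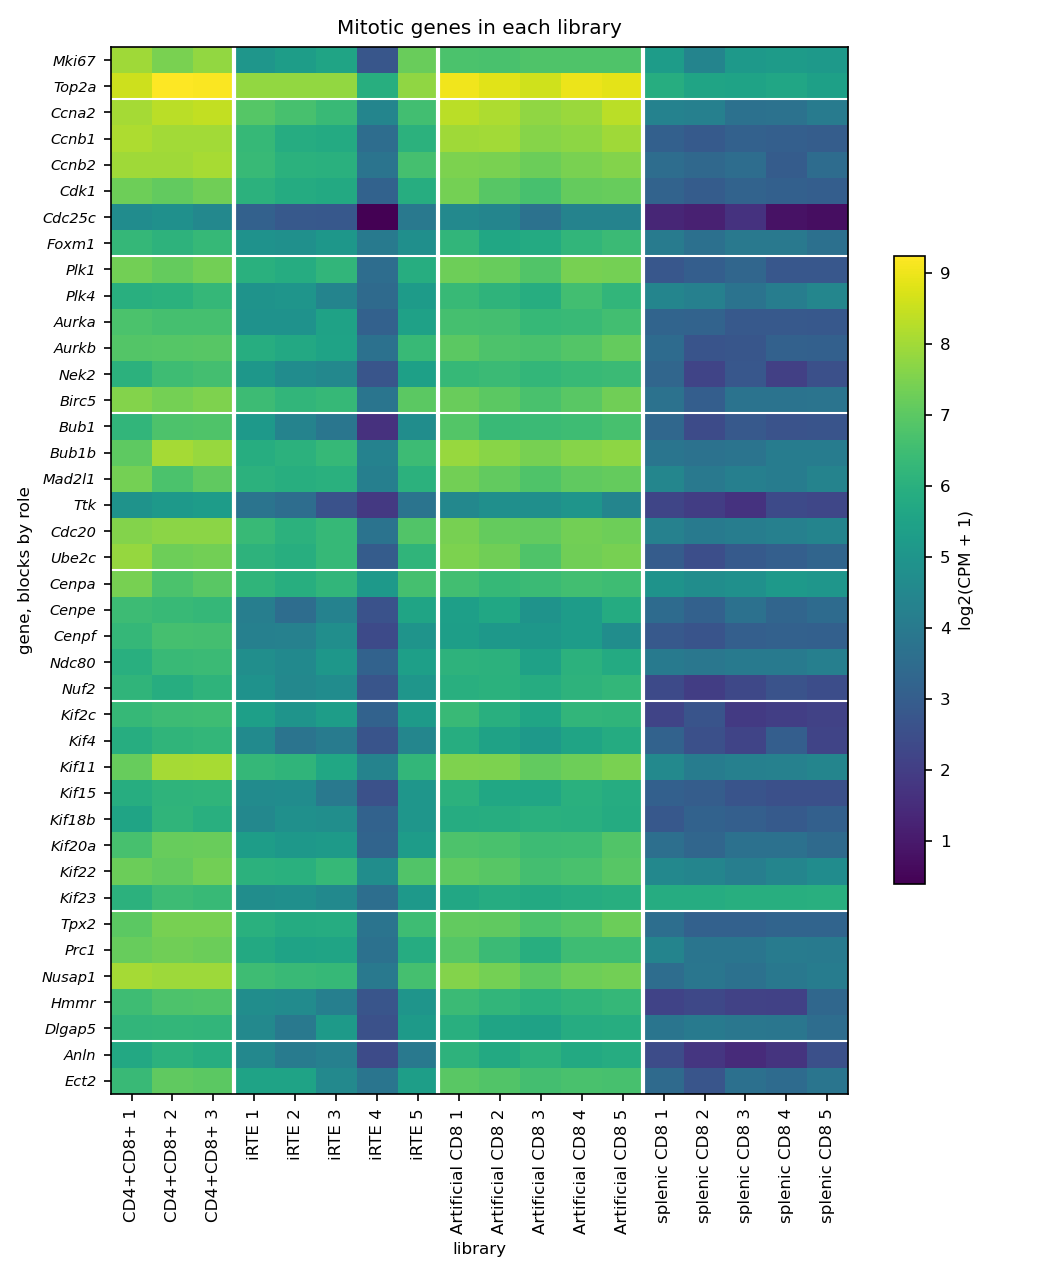
Level of each of the 40 mitotic genes (rows, in blocks by role) in each of the 18 libraries (columns, white lines between groups), as log2(CPM + 1). The iRTE 4 column is darker than the other 4 iRTE columns, and the Kif23 row is as bright in splenic CD8 (56.7 to 61.8 CPM) as in Artificial CD8 (51.1 to 59.5 CPM).

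Genes of DNA replication, the preceding phase of the cycle, did not follow the same proportions. The 39 listed replication genes, among them the Mcm helicase subunits and Pcna, summed to 6376, 6718 and 6877 CPM in CD4+CD8+ 1 to 3 and to 9577, 8996, 7961, 8825 and 9200 CPM in Artificial CD8 1 to 5. They summed to 4503, 4380, 4502, 1984 and 4566 CPM in iRTE 1 to 5 and to 1835, 1759, 1735, 1817 and 1888 CPM in splenic CD8 1 to 5. By these sums, replication genes were highest in Artificial CD8, and mitotic genes in CD4+CD8+. Gene by gene, edgeR (adjusted p under 0.05) called few differences between these groups. In Artificial CD8, 3 of 39 replication genes were called higher (6.54% of all genes) and 1 of 40 mitotic genes lower (8.12%). The ratio of the mitotic to the replication sum was 0.838 ± 0.0221 (SD, n = 3) in CD4+CD8+ and 0.505 ± 0.0208 (n = 5) in Artificial CD8, with no overlap (0.813 to 0.855 against 0.474 to 0.525). It was 0.457, 0.416, 0.420, 0.235 and 0.541 in iRTE 1 to 5 and 0.289 ± 0.0164 in splenic CD8 (n = 5; 0.265 to 0.312). The iRTE ratios spanned from below every splenic library (iRTE 4) to above every Artificial CD8 library (iRTE 5).

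**Figure D3:**
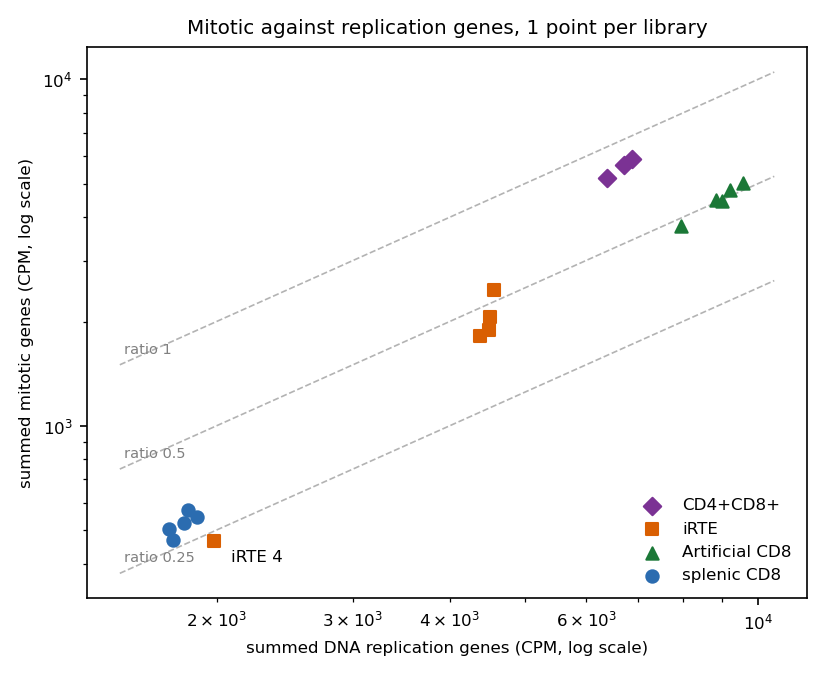
Summed CPM of the 40 mitotic genes against summed CPM of 39 DNA replication genes, both on log scales, 1 point per library, with dashed lines of equal ratio. CD4+CD8+ libraries lie above the line of ratio 0.5 at 0.813 to 0.855, Artificial CD8 on it at 0.474 to 0.525, and iRTE 4 falls beside the splenic libraries.

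Compared with Artificial CD8 cells, iRTE had lower levels of most mitotic genes. By edgeR (adjusted p under 0.05), 35 of 40 genes were lower in iRTE, where 18.7% of all tested genes were called lower. No gene of the 40 was called higher (background 20.0%), none was higher without overlap (background 8.14%), none had an unadjusted p under 0.05 in that direction, and DESeq2 called 36 lower and 0 higher. The median fitted log2 change of the 40 genes was -1.31, against 0.01 over all genes. Without iRTE 4 it was -1.04, with 36 genes called. In 33 genes every iRTE library lay below every Artificial CD8 library (15.5% of all genes). The falls were largest in Bub1, Ccnb1 and Anln. The 5 genes not called were Mki67, Birc5, Cenpa, Cenpf and Kif22, and in each of them iRTE 5 reached into the range of Artificial CD8.

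Compared with splenic CD8 cells, iRTE had higher levels of nearly all mitotic genes, but for most of them iRTE 4 overlapped with the splenic libraries. By edgeR 38 of 40 genes were higher (background 29.2%), with a median log2 change of 2.05 against -0.05 over all genes. Kif23 alone was lower (background 29.0%) and Mki67 was not called. Only 12 genes were higher without overlap (14.2% of all genes) and Kif23 was lower without overlap (27.0%), whereas iRTE 1, 2, 3 and 5 all lay above every splenic library for 35 genes. Without iRTE 4 the count was 39 higher and 1 lower, with a median of 2.29. Artificial CD8 cells, against the same splenic libraries, were higher in 39 of 40 genes (background 30.3%), with a median log2 change of 3.40, and all 39 did so without overlap (28.3% of all genes). None of the 40 was called lower there by edgeR or DESeq2 (background 30.2%), and none had an unadjusted p under 0.05 in that direction. The 2 comparisons share the splenic libraries.

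Against CD4+CD8+ cells, mitotic genes were lower in iRTE and splenic CD8 by most tests and in Artificial CD8 by few. In iRTE all 40 genes were lower by edgeR (background 12.3%) with no overlap for any of them (13.5% of all genes, against 6.41% in the other direction), and the median log2 change was -1.61, or -1.36 without iRTE 4. In splenic CD8 39 genes were lower (background 28.9%), Kif23 being the one not called, with a median of -3.75 and no overlap in 40 (28.3%). In Artificial CD8 only Cenpf was called lower (background 8.12%) and no gene higher (background 6.54%), with a median of -0.32 against 0.00 over all genes. In 14 genes every Artificial CD8 library lay below every CD4+CD8+ library (14.0% of all genes). At an unadjusted p under 0.05, 5 genes were lower and 0 higher, and DESeq2 called 1 lower and 0 higher. When only the groups compared entered the fit, the counts moved to 14 lower for Artificial CD8 and to 20 lower for iRTE. The main counts for both rest on a spread estimated over all 4 groups, which varied unequally. The median coefficient of variation over the 40 genes was 46.2% in iRTE, 12.2% in CD4+CD8+ and 13.1% in Artificial CD8. Few calls in the main fit thus do not show that Artificial CD8 matched CD4+CD8+. The share of all genes called was computed for the main fit only, so 14 and 20 stand without it. All comparisons of this paragraph share the 3 CD4+CD8+ libraries. With 1 library left out, 36 to 40 genes remained called for iRTE: the calls of Cdc25c, Aurkb, Birc5, Ube2c and Cenpa were lost without 1 or more libraries. Log2 changes were then -1.66 to -1.80 for Cdc25c (without CD4+CD8+ 1, 2 or 3 or iRTE 2), -1.08 to -1.20 for Birc5 (the same libraries), -1.15 and -1.14 for Aurkb (without CD4+CD8+ 2 or 3), -1.36 for Ube2c and -0.63 for Cenpa (each without CD4+CD8+ 1).

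**Figure D4:**
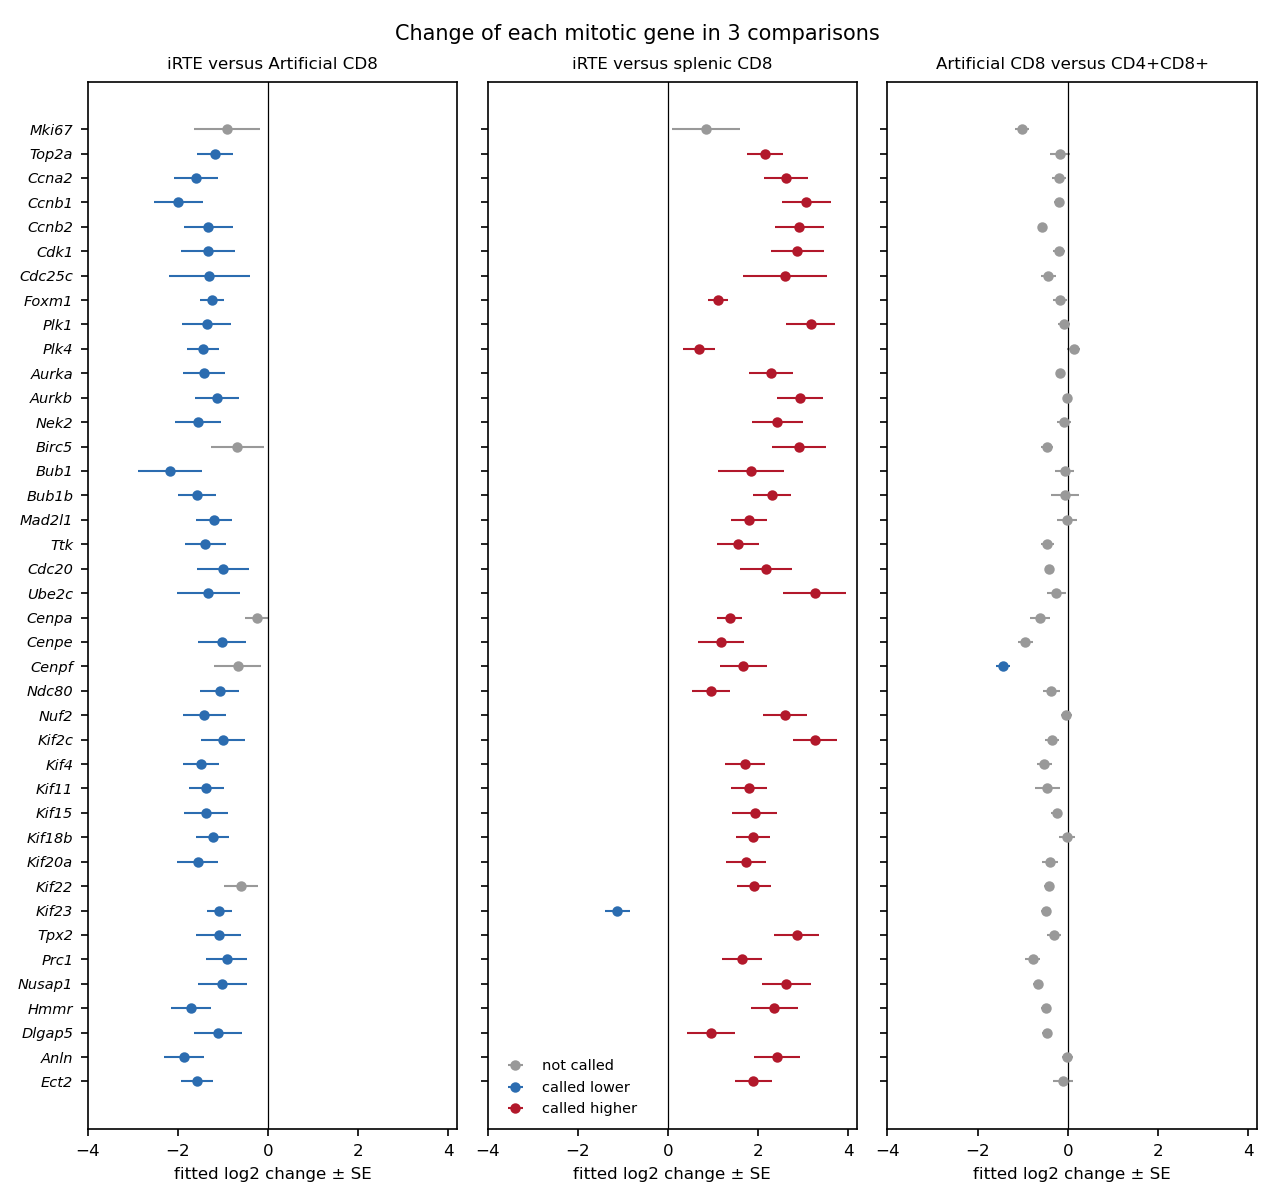
Fitted log2 change of each mitotic gene in 3 comparisons, with the SE from within-group variances of log2 CPM; blue was called lower, red called higher and grey not called by edgeR. In the left panel 35 genes are lower, in the middle 38 are higher and Kif23 is lower, and in the right Cenpf alone was called.

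Among the cyclins, Cdk1 and its regulators, all 6 genes were lower in iRTE than in Artificial CD8 and higher than in splenic CD8. Ccnb1, cyclin B1, which activates Cdk1 at mitotic entry, stood at 282, 254 and 258 CPM in CD4+CD8+ 1 to 3, at 79.2, 56.8, 54.8, 10.6 and 66.4 CPM in iRTE 1 to 5, at 252, 259, 196, 211 and 250 CPM in Artificial CD8 1 to 5 and at 7.64, 6.46, 7.73, 7.36 and 7.01 CPM in splenic CD8 1 to 5. The 4 groups did not overlap except for CD4+CD8+ with Artificial CD8, and splenic cells held 2.74% of the CD4+CD8+ level, the lowest share of the 40 genes. The log2 change of Ccnb1 was -1.99 ± 0.54 (SE; edgeR adjusted p = 6.01e-05) in iRTE against Artificial CD8 (-1.72 without iRTE 4), and 3.07 ± 0.54 (SE; edgeR adjusted p = 5.25e-07) against splenic CD8 (3.34 without iRTE 4). Between Artificial CD8 and splenic CD8 it was 5.07 ± 0.10 (SE; edgeR adjusted p = 1.14e-09), the largest of the 40.

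Ccna2, cyclin A2, which works in S phase and G2, stood at 262, 321 and 342 CPM in CD4+CD8+ 1 to 3, at 118, 100, 81.8, 20.5 and 93.6 CPM in iRTE 1 to 5, at 317, 284, 217, 236 and 316 CPM in Artificial CD8 1 to 5 and at 18.7, 17.9, 12.0, 12.3 and 15.7 CPM in splenic CD8 1 to 5. The CD4+CD8+ and Artificial CD8 libraries overlapped, and those of iRTE and splenic CD8 lay below both. For Ccna2 the log2 change in iRTE was -1.59 ± 0.49 (SE; edgeR adjusted p = 0.000368) against Artificial CD8. Cdk1, the kinase itself, stood at 153, 138 and 160 CPM in CD4+CD8+ 1 to 3, at 66.7, 55.5, 53.1, 7.98 and 58.7 CPM in iRTE 1 to 5, at 165, 121, 99.4, 139 and 145 CPM in Artificial CD8 1 to 5 and at 8.09, 6.83, 8.25, 7.49 and 7.19 CPM in splenic CD8 1 to 5. Here iRTE 4 lay among the splenic libraries and the other iRTE libraries well above them. For Cdk1 the log2 change in iRTE was -1.33 ± 0.60 (SE; edgeR adjusted p = 0.00373) against Artificial CD8 (-1.05 without iRTE 4) and 2.87 ± 0.59 (SE; edgeR adjusted p = 2.53e-06) against splenic CD8 (3.15 without iRTE 4). Foxm1, a transcription factor of G2/M genes, stood at 75.8, 68.6 and 79.0 CPM in CD4+CD8+ 1 to 3, at 28.7, 27.1, 32.2, 14.9 and 26.7 CPM in iRTE 1 to 5, at 73.4, 49.9, 54.2, 73.6 and 84.8 CPM in Artificial CD8 1 to 5 and at 15.9, 11.5, 14.6, 14.5 and 11.6 CPM in splenic CD8 1 to 5. It differed less between groups than Ccnb1, and its log2 change in iRTE was -1.24 ± 0.26 (SE; edgeR adjusted p = 5.52e-05) against Artificial CD8 and 1.11 ± 0.23 (SE; edgeR adjusted p = 9.81e-05) against splenic CD8. Ccnb2, cyclin B2, had group means of 256 ± 10.8 CPM in CD4+CD8+, 63.6 ± 31.7 in iRTE, 173 ± 14.3 in Artificial CD8 and 9.57 ± 1.68 in splenic CD8 (SD). Cdc25c, the phosphatase that activates Cdk1, had the lowest levels of this role, with means of 24.8 ± 2.52 CPM in CD4+CD8+, 7.01 ± 5.12 in iRTE, 18.6 ± 3.77 in Artificial CD8 and 1.28 ± 0.644 in splenic CD8 (SD). Its call as lower in iRTE than in Artificial CD8 (edgeR adjusted p = 0.0464) was lost without any 1 of iRTE 1, 2 or 3 or Artificial CD8 1, 2, 4 or 5, with log2 changes of -1.22 to -1.35.

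Of the mitotic kinases and their partner Birc5, 5 of 6 genes were lower in iRTE than in Artificial CD8. Plk1, the Polo-like kinase of spindle assembly and mitotic exit, stood at 163, 141 and 161 CPM in CD4+CD8+ 1 to 3, at 63.1, 57.4, 73.1, 10.7 and 58.9 CPM in iRTE 1 to 5, at 156, 142, 114, 170 and 164 CPM in Artificial CD8 1 to 5 and at 5.94, 7.06, 8.77, 5.90 and 5.84 CPM in splenic CD8 1 to 5. The 4 higher iRTE libraries lay apart from all libraries of the other groups. For Plk1 the log2 change in iRTE was -1.36 ± 0.54 (SE; edgeR adjusted p = 0.00199) against Artificial CD8 (-1.10 without iRTE 4) and 3.17 ± 0.54 (SE; edgeR adjusted p = 4.67e-07) against splenic CD8 (3.44 without iRTE 4). Aurkb, the kinase of the chromosomal passenger complex, stood at 116, 119 and 121 CPM in CD4+CD8+ 1 to 3, at 58.7, 52.4, 44.9, 11.8 and 80.9 CPM in iRTE 1 to 5, at 126, 107, 103, 115 and 140 CPM in Artificial CD8 1 to 5 and at 10.1, 5.48, 5.80, 7.74 and 7.55 CPM in splenic CD8 1 to 5. Its mean did not differ between Artificial CD8 and CD4+CD8+ beyond their spread, with a log2 change of -0.02 ± 0.08 (SE; edgeR adjusted p = 0.983). Birc5 (survivin), another subunit of that complex, stood at 190, 164 and 182 CPM in CD4+CD8+ 1 to 3, at 87.4, 73.0, 78.9, 13.1 and 126 CPM in iRTE 1 to 5, at 148, 126, 103, 123 and 160 CPM in Artificial CD8 1 to 5 and at 12.1, 7.06, 12.4, 12.6 and 12.7 CPM in splenic CD8 1 to 5. In iRTE 5 it lay within the range of Artificial CD8, and the log2 change of Birc5 between these groups was -0.68 ± 0.59 (SE; edgeR adjusted p = 0.123). Without iRTE 5 it was -0.89 and called.

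Plk4, the kinase that starts centriole duplication, had the smallest rise over splenic cells in iRTE. It stood at 61.7, 64.5 and 75.7 CPM in CD4+CD8+ 1 to 3, at 29.1, 30.9, 19.8, 9.92 and 36.5 CPM in iRTE 1 to 5, at 80.9, 68.9, 59.2, 92.8 and 72.1 CPM in Artificial CD8 1 to 5 and at 20.3, 18, 12.6, 16.4 and 21.0 CPM in splenic CD8 1 to 5. Its mean in Artificial CD8 was 111% of that in CD4+CD8+ cells, the highest share of the 40 genes, though the groups overlapped. In iRTE the log2 change of Plk4 was -1.44 ± 0.36 (SE; edgeR adjusted p = 0.000136) against Artificial CD8 and 0.69 ± 0.36 (SE; edgeR adjusted p = 0.0220) against splenic CD8. The latter call was lost without iRTE 1 (0.62), iRTE 2 (0.60), iRTE 5 (0.56) or splenic CD8 3 (0.61). Aurka, the kinase of spindle poles, had group means of 99.4 ± 3.71 CPM in CD4+CD8+, 30.4 ± 14.7 in iRTE, 89.0 ± 8.21 in Artificial CD8 and 7.04 ± 1.17 in splenic CD8 (SD). Nek2, a centrosome kinase, had means of 83.7 ± 15.1 CPM in CD4+CD8+, 25.2 ± 13.3 in iRTE, 80.3 ± 3.76 in Artificial CD8 and 5.27 ± 2.32 in splenic CD8 (SD).

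All 6 genes of the spindle checkpoint and the anaphase-promoting complex were lower in iRTE than in Artificial CD8 and higher than in splenic CD8. Bub1, a checkpoint kinase at kinetochores, stood at 72.7, 108 and 110 CPM in CD4+CD8+ 1 to 3, at 35.2, 19.1, 13.5, 2.12 and 25.2 CPM in iRTE 1 to 5, at 115, 81.7, 83.4, 87.6 and 99.1 CPM in Artificial CD8 1 to 5 and at 9.0, 4.28, 6.17, 5.20 and 5.39 CPM in splenic CD8 1 to 5. The iRTE mean was 20.4% of that in Artificial CD8, the lowest share of the 40 genes, and iRTE 4 lay below every splenic library. In iRTE the log2 change of Bub1 was -2.17 ± 0.71 (SE; edgeR adjusted p = 0.000419) against Artificial CD8 (-1.87 without iRTE 4) and 1.84 ± 0.73 (SE; edgeR adjusted p = 0.00134) against splenic CD8 (2.13 without iRTE 4). Cdc20, which activates the anaphase-promoting complex, stood at 193, 204 and 205 CPM in CD4+CD8+ 1 to 3, at 79.9, 65.5, 78.0, 12.4 and 112 CPM in iRTE 1 to 5, at 168, 140, 137, 161 and 154 CPM in Artificial CD8 1 to 5 and at 18.3, 15.1, 16.6, 17.7 and 19.6 CPM in splenic CD8 1 to 5. Its log2 change in iRTE was -1.0 ± 0.57 (SE; edgeR adjusted p = 0.0180) against Artificial CD8. Ube2c, the ubiquitin-conjugating enzyme of that complex, stood at 227, 156 and 162 CPM in CD4+CD8+ 1 to 3, at 68.1, 60.0, 77.8, 6.77 and 71.0 CPM in iRTE 1 to 5, at 180, 159, 110, 157 and 171 CPM in Artificial CD8 1 to 5 and at 6.73, 4.66, 6.39, 7.30 and 8.71 CPM in splenic CD8 1 to 5. In iRTE 4 it was at the splenic level and in the other iRTE libraries far above it, so that the iRTE mean was 8.40 times the splenic mean. The log2 change of Ube2c was 3.26 ± 0.70 (SE; edgeR adjusted p = 3.46e-06) against splenic CD8 (3.56 without iRTE 4) and -1.32 ± 0.69 (SE; edgeR adjusted p = 0.0102) against Artificial CD8 (-1.02 without iRTE 4). Bub1b (BubR1), Mad2l1 (Mad2) and Ttk (Mps1), the other checkpoint genes, were called in the same directions. Their means were 206 ± 68.7 CPM in CD4+CD8+, 61.5 ± 26.2 in iRTE, 201 ± 22.9 in Artificial CD8 and 14.1 ± 1.95 in splenic CD8 (SD) for Bub1b. For Mad2l1 they were 136 ± 30.6 CPM in CD4+CD8+, 54.2 ± 20.7 in iRTE, 136 ± 18 in Artificial CD8 and 17.7 ± 2.52 in splenic CD8 (SD), and for Ttk 34.1 ± 4.41 CPM in CD4+CD8+, 8.84 ± 4.68 in iRTE, 25.3 ± 4.33 in Artificial CD8 and 3.38 ± 0.781 in splenic CD8 (SD).

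Of the 5 centromere and kinetochore genes, 3 were called lower in iRTE than in Artificial CD8, and all 5 were higher than in splenic CD8. Cenpa, the histone H3 variant of centromeres, stood at 169, 104 and 123 CPM in CD4+CD8+ 1 to 3, at 72.0, 60.6, 73.3, 34.2 and 98.1 CPM in iRTE 1 to 5, at 93.4, 78.8, 85.1, 92.5 and 88.9 CPM in Artificial CD8 1 to 5 and at 29.1, 25.2, 27.6, 34.4 and 31.7 CPM in splenic CD8 1 to 5. The iRTE mean was 77.1% of that in Artificial CD8, the highest share of the 40, and iRTE 5 lay above all Artificial CD8 libraries. The log2 change of Cenpa between them was -0.25 ± 0.26 (SE; edgeR adjusted p = 0.336), and it was 1.37 ± 0.27 (SE; edgeR adjusted p = 1.4e-05) against splenic CD8. Cenpf, a large kinetochore protein made in G2, stood at 76.9, 98.0 and 95 CPM in CD4+CD8+ 1 to 3, at 17.7, 18.3, 26.0, 4.17 and 30.3 CPM in iRTE 1 to 5, at 39.2, 33.0, 32.9, 37.9 and 25.1 CPM in Artificial CD8 1 to 5 and at 6.22, 5.48, 7.28, 7.74 and 7.64 CPM in splenic CD8 1 to 5. The Artificial CD8 libraries all lay well below the CD4+CD8+ libraries, with a log2 change of -1.44 ± 0.15 (SE; edgeR adjusted p = 0.00892), the one call of the 40 in that comparison. Between iRTE and Artificial CD8 the log2 change of Cenpf was -0.67 ± 0.52 (SE; edgeR adjusted p = 0.0953), or -0.86 and called without iRTE 5. Cenpe, the kinetochore kinesin, stood at 86.1, 79.8 and 75.9 CPM in CD4+CD8+ 1 to 3, at 16.9, 10.7, 18.8, 5.08 and 46.2 CPM in iRTE 1 to 5, at 40.3, 49.7, 29.7, 37.7 and 56.1 CPM in Artificial CD8 1 to 5 and at 10.1, 7.66, 11.8, 8.69 and 10.1 CPM in splenic CD8 1 to 5. It was lower in Artificial CD8 than in CD4+CD8+ without overlap, but with a log2 change of -0.94 ± 0.17 (SE; edgeR adjusted p = 0.125) it was not called. In iRTE against Artificial CD8 the log2 change of Cenpe was -1.02 ± 0.54 (SE; edgeR adjusted p = 0.0305), a call lost without iRTE 1 (-0.99), iRTE 2 (-0.87), Artificial CD8 2 (-0.96) or Artificial CD8 5 (-0.90). Against splenic CD8 it was 1.18 ± 0.52 (SE; edgeR adjusted p = 0.0104), lost without iRTE 5 (0.63). Ndc80 and Nuf2, which form part of the microtubule-binding kinetochore complex, differed in how far they stood above splenic cells. Ndc80 had means of 75.9 ± 11.9 CPM in CD4+CD8+, 26.1 ± 12.3 in iRTE, 59.7 ± 10.7 in Artificial CD8 and 15.2 ± 1.29 in splenic CD8 (SD), and Nuf2 of 65.9 ± 6.96 CPM in CD4+CD8+, 22.4 ± 10.1 in iRTE, 65.3 ± 6.95 in Artificial CD8 and 4.18 ± 0.834 in splenic CD8 (SD).

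Of the 8 kinesins, motor proteins of the spindle, 7 were lower in iRTE than in Artificial CD8 and 7 higher than in splenic CD8. The exception in the second comparison was Kif23, the motor subunit of centralspindlin, which acts at the midzone in cytokinesis. Kif23 stood at 66.1, 85.4 and 79.9 CPM in CD4+CD8+ 1 to 3, at 25.3, 26.8, 22.8, 11 and 34.2 CPM in iRTE 1 to 5, at 51.1, 56.6, 52.8, 57.0 and 59.5 CPM in Artificial CD8 1 to 5 and at 57.4, 56.7, 60.7, 60.0 and 61.8 CPM in splenic CD8 1 to 5. Splenic cells thus held 76.9% of the CD4+CD8+ level, where the median of the 40 genes was 7.78%, and overlapped with Artificial CD8, while all 5 iRTE libraries lay below both. In iRTE the log2 change of Kif23 was -1.12 ± 0.28 (SE; edgeR adjusted p = 5.92e-05) against splenic CD8 (-0.93 without iRTE 4) and -1.08 ± 0.28 (SE; edgeR adjusted p = 0.000175) against Artificial CD8. Between Artificial CD8 and splenic CD8 it was -0.04 ± 0.04 (SE; edgeR adjusted p = 0.858). Kif23 shares no exon with another gene in the GENCODE M21 annotation of GRCm38. Racgap1, its partner in centralspindlin, was lower in Artificial CD8 than in CD4+CD8+ cells, at 312 against 512 CPM. Kif23 was not called in that comparison, with a log2 change of -0.49 ± 0.11 (SE; edgeR adjusted p = 0.128). Whether Racgap1 shared the high level of Kif23 in splenic CD8 is not reported here.

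Kif11 (Eg5), which pushes spindle poles apart, stood at 145, 260 and 266 CPM in CD4+CD8+ 1 to 3, at 77.4, 72.0, 49.9, 19.5 and 74.7 CPM in iRTE 1 to 5, at 181, 177, 138, 156 and 176 CPM in Artificial CD8 1 to 5 and at 22.5, 16.2, 17.8, 18.4 and 20.3 CPM in splenic CD8 1 to 5. Its log2 change in iRTE was -1.37 ± 0.39 (SE; edgeR adjusted p = 0.000453) against Artificial CD8. Kif20a, a kinesin of cytokinesis, stood at 100, 142 and 147 CPM in CD4+CD8+ 1 to 3, at 39.1, 33.5, 36.3, 8.35 and 37.9 CPM in iRTE 1 to 5, at 107, 103, 86.9, 88.8 and 114 CPM in Artificial CD8 1 to 5 and at 11.2, 8.79, 11.7, 11.9 and 9.79 CPM in splenic CD8 1 to 5. In iRTE 4 it lay just below every splenic library, and the log2 change of Kif20a in iRTE was -1.56 ± 0.45 (SE; edgeR adjusted p = 0.000191) against Artificial CD8 (-1.31 without iRTE 4). Kif22, a motor that binds chromosome arms, stood at 149, 137 and 163 CPM in CD4+CD8+ 1 to 3, at 66.9, 62.6, 77.8, 25.6 and 114 CPM in iRTE 1 to 5, at 131, 122, 95.9, 103 and 120 CPM in Artificial CD8 1 to 5 and at 21.8, 20.4, 16.8, 20.4 and 24.6 CPM in splenic CD8 1 to 5. Its log2 change between iRTE and Artificial CD8 was -0.60 ± 0.37 (SE; edgeR adjusted p = 0.0533); without iRTE 4 it was -0.38 and without iRTE 5 -0.81, and it was then called. RLE scaling (-0.63) and DESeq2 (-0.63) also called it. Kif2c, a microtubule depolymerase, had means of 84.5 ± 6.10 CPM in CD4+CD8+, 30.6 ± 13.4 in iRTE, 67.1 ± 13.7 in Artificial CD8 and 3.65 ± 1.09 in splenic CD8 (SD), and its iRTE mean was also 8.40 times the splenic mean. Kif4, Kif15 and Kif18b were called in the same directions as Kif2c, with iRTE means of 15.6, 20.1 and 23.0 CPM against 47.8, 56.5 and 59.1 CPM in Artificial CD8 and 5.39, 5.93 and 7.06 CPM in splenic CD8.

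Spindle assembly and cytokinesis genes were lower in iRTE than in Artificial CD8 in 7 of 7 cases, and higher than in splenic CD8 in 7 of 7. Tpx2, which activates Aurora A at the spindle, stood at 127, 170 and 171 CPM in CD4+CD8+ 1 to 3, at 63.4, 55.6, 56.7, 12.8 and 89.3 CPM in iRTE 1 to 5, at 136, 134, 105, 119 and 149 CPM in Artificial CD8 1 to 5 and at 10.9, 7.74, 7.73, 8.37 and 8.44 CPM in splenic CD8 1 to 5. In iRTE the log2 change of Tpx2 was -1.09 ± 0.50 (SE; edgeR adjusted p = 0.00711) against Artificial CD8 and 2.86 ± 0.50 (SE; edgeR adjusted p = 6.9e-07) against splenic CD8. Ect2, the exchange factor that activates RhoA at the cleavage furrow, stood at 82.4, 135 and 126 CPM in CD4+CD8+ 1 to 3, at 44.6, 44.3, 22.4, 13.1 and 39.5 CPM in iRTE 1 to 5, at 123, 114, 95.9, 102 and 99.6 CPM in Artificial CD8 1 to 5 and at 9.96, 5.56, 11.4, 10.2 and 13.2 CPM in splenic CD8 1 to 5. Its log2 change in iRTE was -1.58 ± 0.36 (SE; edgeR adjusted p = 0.000167) against Artificial CD8. Anln (anillin), a scaffold of the contractile ring, had means of 58.8 ± 7.35 CPM in CD4+CD8+, 14.9 ± 6.51 in iRTE, 59.3 ± 6.96 in Artificial CD8 and 3.14 ± 1.37 in splenic CD8 (SD). Prc1, which bundles midzone microtubules, had means of 150 ± 6.82 CPM in CD4+CD8+, 42.7 ± 18 in iRTE, 88.4 ± 20.9 in Artificial CD8 and 15.4 ± 2.75 in splenic CD8 (SD), and Nusap1, a spindle microtubule binder, of 250 ± 9.98 CPM in CD4+CD8+, 72.3 ± 33.1 in iRTE, 160 ± 24.1 in Artificial CD8 and 13.3 ± 2.21 in splenic CD8 (SD). Hmmr had means of 102 ± 12.4 CPM in CD4+CD8+, 20.6 ± 9.60 in iRTE, 73.8 ± 7.54 in Artificial CD8 and 4.61 ± 2.51 in splenic CD8 (SD). Dlgap5 (HURP), a kinetochore fibre protein, had means of 73.4 ± 1.23 CPM in CD4+CD8+, 22.8 ± 13.5 in iRTE, 53.5 ± 7.91 in Artificial CD8 and 13.2 ± 1.68 in splenic CD8 (SD). Its call against splenic CD8, at a log2 change of 0.96 ± 0.54 (SE; edgeR adjusted p = 0.0188), was lost without iRTE 3 (0.71) or iRTE 5 (0.77).

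The proliferation mark Mki67 (Ki-67), a protein that coats mitotic chromosomes, varied most among iRTE libraries. Mki67 stood at 252, 174 and 220 CPM in CD4+CD8+ 1 to 3, at 31.4, 38.2, 45.4, 5.75 and 146 CPM in iRTE 1 to 5, at 106, 103, 110, 109 and 109 CPM in Artificial CD8 1 to 5 and at 38.0, 19.9, 34.7, 37.2 and 34.8 CPM in splenic CD8 1 to 5. It was nearly constant in Artificial CD8 (107 ± 2.97, SD), while iRTE 5 exceeded every Artificial CD8 library and iRTE 4 lay below every splenic library. The log2 change of Mki67 in iRTE was -0.91 ± 0.74 (SE; edgeR adjusted p = 0.121) against Artificial CD8, or -1.66 and called without iRTE 5. Against splenic CD8 it was 0.85 ± 0.76 (SE; edgeR adjusted p = 0.120), or 1.15 and called without iRTE 4. With only iRTE 1 to 3 it was 0.46 and called. Without iRTE 5 it was 0.10 and not called, so its size rested on iRTE 5. Top2a, topoisomerase II alpha, which untangles sister chromatids, behaved otherwise. It stood at 374, 601 and 586 CPM in CD4+CD8+ 1 to 3, at 224, 219, 224, 59.3 and 215 CPM in iRTE 1 to 5, at 533, 452, 389, 503 and 465 CPM in Artificial CD8 1 to 5 and at 58.6, 46.4, 45.2, 48.2 and 42.1 CPM in splenic CD8 1 to 5. In iRTE 1, 2, 3 and 5 it spanned only 215 to 224 CPM, below all Artificial CD8 libraries and above all splenic ones. For Top2a the log2 change in iRTE was -1.18 ± 0.40 (SE; edgeR adjusted p = 0.00132) against Artificial CD8 (-0.95 without iRTE 4) and 2.16 ± 0.40 (SE; edgeR adjusted p = 1.92e-06) against splenic CD8 (2.39 without iRTE 4).

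**Figure D5:**
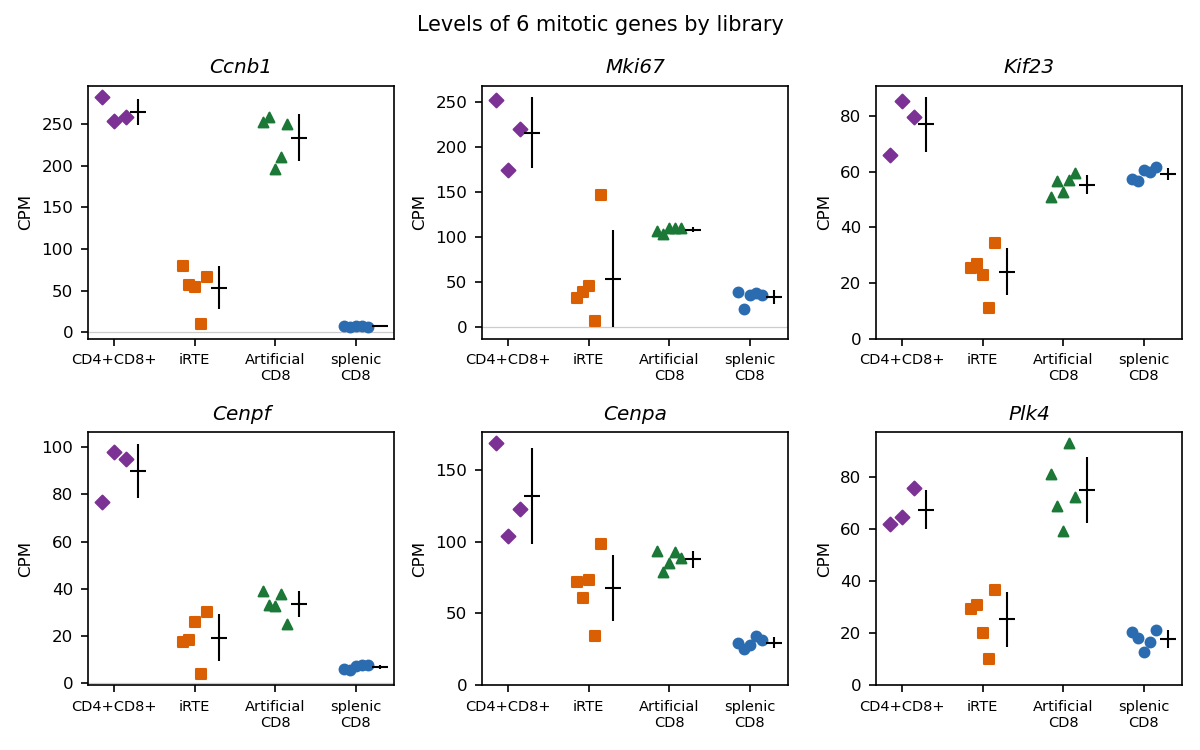
CPM of 6 mitotic genes in each library, with the mean and SD of each group (black). Ccnb1 falls steeply to splenic CD8, Kif23 does not, Mki67 is high in iRTE 5 (146 CPM), and Cenpf is lower in Artificial CD8 than in CD4+CD8+.

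The 5 iRTE libraries differed from one another more than those of the other groups, in large part through iRTE 4. The coefficient of variation of a gene had a median of 46.2% over the 40 genes in iRTE, against 12.2% in CD4+CD8+, 13.1% in Artificial CD8 and 17.1% in splenic CD8. Without iRTE 4 the iRTE median was 21.5%, from 2.09% for Top2a to 83.1% for Mki67. For 40 of 40 genes iRTE 4 was the lowest iRTE library. Its level was 21.3% (median) of the median of the other 4, from 4.32% for Cdc25c to 53.6% for Foxm1. It lay within the splenic range for 16 genes, below it for 12 and above it for 12. This library had the most counts of its group (16533373), and the CD8 chains went opposite ways in it. Cd8a stood at 443 CPM against 1117 to 1338 in the other iRTE libraries, and Cd8b1 at 3207 CPM against 1755 to 2508. The library iRTE 5 was the highest for 25 genes, at 130% (median) of the median of iRTE 1 to 3, from 81.2% for Anln to 383% for Mki67. The labels describe iRTE 1 to 3 and iRTE 4 and 5 with names of 2 styles, and say nothing of a batch. With only iRTE 1 to 3, 39 genes were lower than in Artificial CD8, 39 higher than in splenic CD8 and 40 lower than in CD4+CD8+. With only iRTE 4 and 5 these counts were 33, 34 and 36, and Kif23 was lower than in splenic CD8 in both cases. The share of all genes called with these parts of iRTE was not computed.

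Other mitotic genes that are not among the 40 followed them in most cases, in a list of 68 genes found in the table. In iRTE against Artificial CD8, 47 were lower (background 18.7%) and 3 higher, well under the 20.0% of all genes called higher, with a median log2 change of -1.01. The largest falls were in Kifc1 (-1.98 ± 0.50), Shcbp1 (-1.89 ± 0.45) and Pbk (-1.85 ± 0.82), and the 3 higher genes were Pttg1 (0.60 ± 0.13), securin, Cdc25b (0.44 ± 0.14) and Zwint (0.32 ± 0.10). Against splenic CD8, 57 were higher (background 29.2%) and 4 lower (29.0%) in iRTE. In Artificial CD8 62 were higher (30.3%) and 2 lower (30.2%). Smc4, a condensin subunit, was among the exceptions in both, with 834 CPM in splenic CD8 against 473 in iRTE and 509 in Artificial CD8. Ncapd3, a condensin II subunit, was also higher in splenic CD8 (138 CPM) than in iRTE (70.9 CPM). Against CD4+CD8+, 4 of the 68 were lower in Artificial CD8, a smaller share than the 8.12% of all genes, with Mad1l1 (-0.96 ± 0.07), Racgap1 (-0.73 ± 0.06) and Smc2 (-0.68 ± 0.10) the largest.

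The activity of the anaphase-promoting complex is controlled mainly by its activators and phosphorylation. Its list, core subunits together with Ube2s and the activator Fzr1, had called genes in both directions between iRTE and Artificial CD8. Of 15 genes 5 were higher (background 20.0%) and 6 lower (18.7%) in iRTE, with a median log2 change of -0.41. Cdc16 was the largest fall, at 101 against 236 CPM, and Fzr1 (Cdh1), the activator that keeps the complex on in G1 and resting cells, the largest rise, at 132 against 91.7 CPM. In Artificial CD8 Fzr1 was also lower than in CD4+CD8+ cells (91.7 against 148 CPM). The other comparisons were mostly one-sided. Against splenic CD8, 8 were higher (background 29.2%) and 0 lower (29.0%) in iRTE. In Artificial CD8 10 were higher (30.3%) and 1 lower (30.2%). Cdc16 differed most there (236 against 91.2 CPM, a log2 change of 1.43 ± 0.08). Against CD4+CD8+, 10 were lower (background 28.9%) and 0 higher (27.4%) in splenic CD8.

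Of 19 regulators of G2/M transcription and entry, 10 were lower in iRTE than in Artificial CD8 (background 18.7%) and 2 higher, fewer than the 20.0% of all genes. Mybl2 (B-Myb), the MuvB partner, had 18.6 CPM in iRTE, 61.2 in Artificial CD8, 4.45 in splenic CD8 and 49.2 in CD4+CD8+ cells. E2f8, a repressor of E2F targets, had 10.7, 30.8, 3.08 and 44.6 CPM in these groups. Its relative E2f7 was the largest rise in iRTE against Artificial CD8, with a log2 change of 1.36 ± 0.47, at 3.25 against 1.38 CPM. Against splenic CD8, 8 of the 19 were higher (background 29.2%) and 3 lower (29.0%) in iRTE. The largest rise was in Cks1b, at 94.1 against 12.2 CPM. Lin9, a MuvB subunit, and Pkmyt1, an inhibitory kinase of Cdk1, were among the lower, with 12.2 and 19.4 CPM in iRTE against 28.2 and 39.8 CPM in splenic CD8. Of the 39 replication genes 32 were lower in iRTE than in Artificial CD8 (background 18.7%; median log2 change -0.88). In iRTE 36 were higher than in splenic CD8 (background 29.2%; 1.53). Against CD4+CD8+, 17 were lower (background 12.3%) and 1 higher (11.8%) in iRTE, with a median of -0.67. In Artificial CD8, 3 were higher, near the 6.54% of all genes, with a median of 0.39. In that comparison the 40 mitotic genes had a median of -0.32.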

How the data were processed

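The count values are whole reads per gene symbol, deposited by the authors in 1 table for each of the 18 libraries; reads were aligned with STAR 2.4.2 to build mm9 and counted with Subread, per the submitters' processing notes. The annotation and counting settings were not given in the sources used here; the deposited log2 table was left out. Levels are CPM on each library's total (11132768 to 19305751 counts, 3 counts being 0.155 to 0.269 CPM).

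All 18 libraries were fitted together in edgeR 4.0.16 (R 4.3.3) with a coefficient per group, TMM scaling and the default low-count filter (13922 of 43280 genes). The 6 comparisons used its quasi-likelihood F test at a threshold of 0.05 on Benjamini-Hochberg adjusted p over all genes. Each SE comes from within-group variances of log2 CPM (prior count 2), not from the fit. Called and not overlapping (every library of one group beyond every library of the other) are distinct. The scripts were tested on simulated counts. Replicates differed by more than counting error (chi-square per degree of freedom at least 4.51).

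The 40 genes, the other lists and the marker lists were chosen with earlier results of these data known, so their counts are descriptions. Levels in every library are given for 18 genes picked by role, and for genes called against the majority or not called where at least 30 were; of other lists, at most the 3 largest called changes per direction are named. E2f7, Racgap1 and Fzr1 are such genes. Promoters are RefSeq's on GRCm38.p6, matched by symbol (33 of 40), and are used apart from the mm9 counts. Alternatives were other scalings, no filter, DESeq2 1.42.0, only the groups compared, a replicate block, leaving out each library and parts of iRTE.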

Additional observations from a re-analysis of the deposited data

Results flagged for a closer look

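Among the 40 genes, the 3 groups of 5 libraries gave 120 checks for a library standing apart from its group by Dixon's ratio, and 13 were positive. Chance gives about 1 in 20 for a single check. The checks are not independent, since the 40 genes are read in the same libraries, so no excess over chance can be read from the 13.

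The library iRTE 4 accounted for 8 of them, always as the lowest. It was the lowest iRTE library for 40 of 40 genes, so these 8 are not separate events. Top2a stood at 59.3 CPM there, against 215 to 224 in the other iRTE libraries. Cdk1 stood at 7.98 CPM (others 53.1 to 66.7), Plk1 at 10.7 (57.4 to 73.1), Mad2l1 at 17.4 (59.4 to 66.0) and Ube2c at 6.77 (60.0 to 77.8). Kif20a stood at 8.35 CPM (33.5 to 39.1), Prc1 at 11.7 (44.9 to 57.0) and Nusap1 at 14.6 (78.1 to 97.7).

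In the opposite direction, Mki67 was high in iRTE 5, at 146 CPM against 5.75 to 45.4. In splenic CD8 2, Mki67 was low at 19.9 CPM (others 34.7 to 38.0), and Birc5 was low at 7.06 CPM (12.1 to 12.7). Tpx2 was high in splenic CD8 1, at 10.9 CPM (7.73 to 8.44), and Hmmr in splenic CD8 5, at 9.07 CPM (3.24 to 3.91).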

How the results depend on the processing

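Counts of called mitotic genes moved by over 1.5 times under 1 alternative, fitting only the groups compared: iRTE against CD4+CD8+ went from 40 to 20 lower, and Artificial CD8 against CD4+CD8+ from 1 to 14 lower. That fit estimates the spread from the 8 libraries compared in place of all 18, and the spread was unequal between groups. Why the counts moved was not tested. Shares of all genes called were computed for the main fit only, so counts under alternatives stand without them. Leaving out 1 library at a time gave 33 to 39 lower for iRTE against Artificial CD8, 35 to 39 higher and 1 lower against splenic CD8, and 36 to 40 lower against CD4+CD8+. The other comparisons kept counts of 39, 1 and 39. Of values for single genes under an alternative, 3534 kept direction and side of the threshold, 73 lost a call and 31 gained one. A further 11 uncalled values within 1 SE of 0, 10 of them in Artificial CD8 against CD4+CD8+, took the other sign under some setting. Without scaling factors the median of all genes moved to -0.22 (iRTE against splenic CD8) and -0.11 (against Artificial CD8), with 36 higher and 37 lower members.

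Replicate numbers are shared between groups. Over all tested genes, deviations of the 24 same-numbered pairs correlated at -0.0663 to 0.0587, and 3 of 18 libraries correlated best with their own number. No pairing was seen by this check, which could miss a weak shared source or one limited to some genes. With the replicate block 37 genes were lower for iRTE against Artificial CD8, 37 higher and 1 lower against splenic CD8 and 40 lower against CD4+CD8+; Mki67 was then called lower against Artificial CD8 (-1.23) and Dlgap5 was not called against splenic CD8 (0.84). With 3 to 5 libraries a group and unknown replicate sources, small differences between Artificial CD8 and CD4+CD8+ cannot be settled.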
